A study of Mus musculus with 20 samples.

Results

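The 113 protein-coding immunoglobulin heavy chain V genes (Ighv genes) of the mouse were examined in RNA of whole spleen. They were chosen as every gene whose name begins with Ighv and whose biotype in the deposited annotation is an immunoglobulin V gene, and they are 113 of the 54532 genes of the count table. The libraries came from mice aged 4 weeks: 9 were from mice bred on a gluten-free diet and 11 from control mice. Each library carries an ID that is a plain number or a number after the letter S. The gluten-free libraries have the plain IDs 7, 8, 9 and 10 and the IDs S1, S3, S5, S6 and S8, and the control libraries have the plain IDs 1 to 8 and the IDs S1, S2 and S6. The sources used here give no meaning of the letter, no strain, no litter or cage, and no statement that each ID is a separate mouse, so the spread between libraries may be partly technical.

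A heavy chain gene is assembled in each developing B cell by joining a V, a D and a J segment, so that a B cell and its descendants transcribe mainly the V gene that was joined. The V genes lie in a long array upstream of the D, J and constant genes, are grouped into families by sequence, and include segments near D that are favoured early in life. A V gene count in whole tissue therefore sums over all B lineage cells that use the gene, and an antibody-secreting plasma cell contributes far more RNA than a resting B cell. In bulk RNA, fewer cells and less RNA per cell cannot be told apart.

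All 113 genes lie on the minus strand of chromosome 12 (GRCm38), between 113578504 and 116000461, and fall into 16 families by name. Family 1 holds 53 of them. At least 1 count was found for 107 genes. The other 6, namely Ighv1-16, Ighv1-24, Ighv1-62-1, Ighv16-1, Ighv7-2 and Ighv8-13, had none in any library. The genes are short, with a deposited length of 294 to 480 bases and a median of 353 bases. Each was compared with its nearest relative in the reference transcripts of GENCODE release M21. The median identity to the nearest other gene was 94.9%, and 55 genes had a relative at 95% identity or more. Cut into windows of 50 bases, 16 genes had fewer than 50% of windows found in no other Ighv gene or pseudogene, while 20 genes shared no window. How reads that match several genes were counted is not given in the sources used here, so the counts of close relatives are less certain.

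The V exons of 5 genes are printed because the results turn on them, each as the coding part of the exon without its first bases, 5′ to 3′ on the minus strand of chromosome 12 (GRCm38), from the GENCODE transcripts. Ighv11-2 (chr12:114048241-114048537) was the most used gene, and Ighv11-1 (chr12:113981879-113982175) is its nearest relative. Over the bases shown they are 98.7% identical, and the capitals mark the 4 bases that differ.
Ighv11-2: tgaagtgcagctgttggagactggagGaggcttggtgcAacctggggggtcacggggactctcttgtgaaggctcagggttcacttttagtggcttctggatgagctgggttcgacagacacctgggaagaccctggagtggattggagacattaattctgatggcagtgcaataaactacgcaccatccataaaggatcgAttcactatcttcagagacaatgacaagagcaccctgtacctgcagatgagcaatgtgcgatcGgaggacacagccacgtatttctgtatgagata
Ighv11-1: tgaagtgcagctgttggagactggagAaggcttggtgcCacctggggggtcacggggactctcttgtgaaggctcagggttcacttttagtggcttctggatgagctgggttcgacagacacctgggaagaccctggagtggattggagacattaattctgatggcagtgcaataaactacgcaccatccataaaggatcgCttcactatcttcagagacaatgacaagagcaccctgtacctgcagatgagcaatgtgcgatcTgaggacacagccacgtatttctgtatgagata

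Ighv1-22 (chr12:114746273-114746569) had the smallest p-value of all Ighv genes in the plain-ID diet comparison. Ighv1-26 (chr12:114788372-114788668) is a nearest relative of it and the most used gene of family 1. Ighv1-34 is equally near to Ighv1-22, at 96.6% identity over the whole coding sequence. Over the bases shown Ighv1-22 and Ighv1-26 are 96.3% identical, and the capitals mark the 11 bases that differ.
Ighv1-22: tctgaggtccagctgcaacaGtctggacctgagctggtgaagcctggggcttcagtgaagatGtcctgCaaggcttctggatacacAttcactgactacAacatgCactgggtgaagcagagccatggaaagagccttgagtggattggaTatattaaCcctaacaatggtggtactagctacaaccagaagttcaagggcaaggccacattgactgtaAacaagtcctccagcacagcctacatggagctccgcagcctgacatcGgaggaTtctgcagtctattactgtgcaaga
Ighv1-26: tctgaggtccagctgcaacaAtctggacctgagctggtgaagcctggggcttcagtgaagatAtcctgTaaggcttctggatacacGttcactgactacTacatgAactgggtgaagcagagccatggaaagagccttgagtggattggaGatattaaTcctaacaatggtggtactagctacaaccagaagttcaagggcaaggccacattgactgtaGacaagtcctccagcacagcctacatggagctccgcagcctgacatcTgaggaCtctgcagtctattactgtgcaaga

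Ighv12-3 (chr12:114366521-114366817), the only gene of family 12, had the highest fold change in the same comparison. The capitals mark the letters TACTGTGC near the 3′ end of the exon, which read as codons for tyrosine and cysteine and the start of the next codon, just before the junction with D. These letters, searched on the coding strand, are in the V exons of 67 of the 113 genes.
Ighv12-3: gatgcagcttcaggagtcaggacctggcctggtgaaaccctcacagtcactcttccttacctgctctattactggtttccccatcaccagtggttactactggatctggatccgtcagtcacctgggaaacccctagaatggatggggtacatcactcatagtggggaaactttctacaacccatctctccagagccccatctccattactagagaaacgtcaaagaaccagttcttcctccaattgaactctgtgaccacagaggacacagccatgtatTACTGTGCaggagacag

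The libraries held 13626021 to 24268237 counts, of which 2112 to 16344 fell on Ighv genes (0.0117% to 0.0804% of the total). Levels are given as CPM, counts scaled to a common library size with the TMM factors of edgeR. None of the 12 B cell identity genes was at 0 in any group, and neither was any gene of the plasma cell, T cell, erythroid or neutrophil lists, all of which the spleen of a young mouse holds. Control 8, gluten-free S6 and control S6 stood apart from their groups by high B cell and low erythroid levels. Within a diet and form 47 pairs of libraries can be made, and their squared count differences were on average 6.30 to 107 times what counting noise alone gives (chi-square per degree of freedom), so no pair agreed within sampling noise.

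The summed level of the Ighv genes differed between the diets in opposite directions in the 2 ID forms. Among the plain IDs the sum was 646, 712, 610 and 622 CPM in gluten-free libraries 7, 8, 9 and 10, against 224 to 536 CPM with a median of 383 CPM in the control libraries. Every gluten-free library lay above every control library. The means were 648 ± 45.7 CPM (SD, n = 4) in gluten-free and 382 ± 125 CPM (SD, n = 8) in control libraries, a ratio of 1.70 (1.60 without control 2 and 1.80 without control 8). Among the S IDs the sum was 310, 226, 131, 325 and 185 CPM in gluten-free libraries S1, S3, S5, S6 and S8, against 389, 510 and 431 CPM in control libraries S1, S2 and S6. Here every gluten-free library lay below every control library, with means of 235 ± 82.3 CPM (SD, n = 5) in gluten-free and 443 ± 61.1 CPM (SD, n = 3) in control libraries. The sum adds up the genes under study, so it is given as a description with no test.

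**Figure D1:**
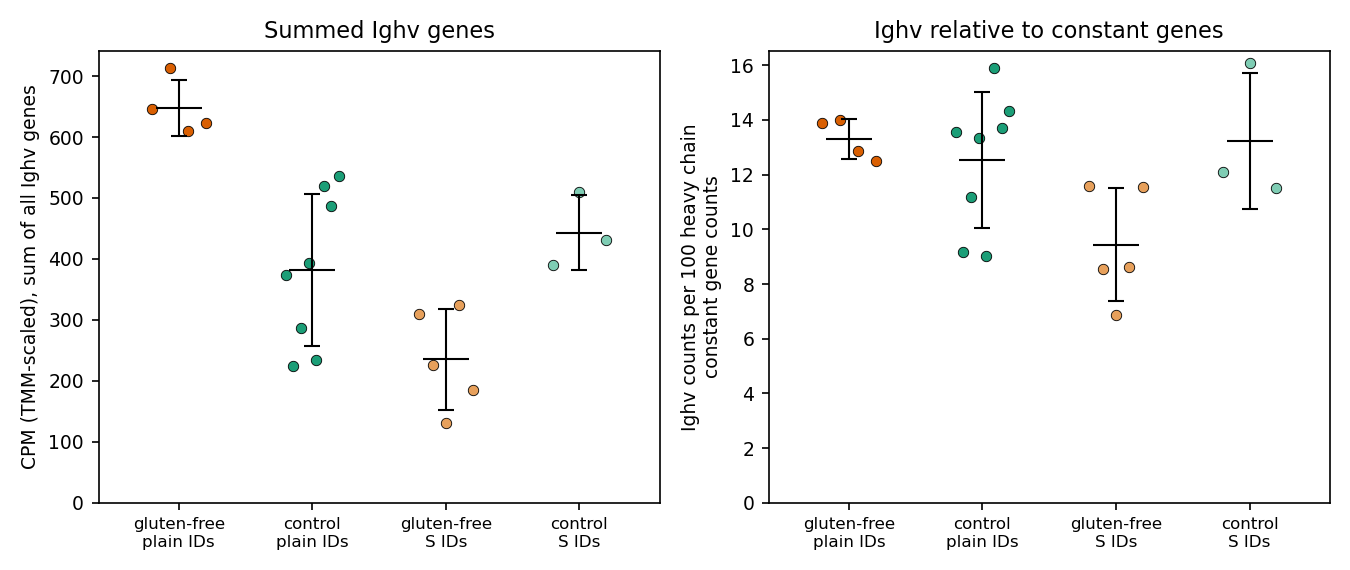
Summed level of the 113 Ighv genes (left, TMM-scaled CPM) and Ighv counts per 100 counts on heavy chain constant genes (right), with 1 point per library and bars for the mean ± SD of each diet and ID form. With plain IDs the gluten-free points lie above the control points on the left and within their range on the right, and with S IDs they lie below the control points on the left.

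Other immunoglobulin measures were set beside the sum. Ighv counts per 100 counts of the heavy chain constant genes were 13.3 ± 0.74 (SD, n = 4) in gluten-free and 12.5 ± 2.48 (SD, n = 8) in control libraries with plain IDs. With S IDs they were 9.44 ± 2.06 (SD, n = 5) in gluten-free and 13.2 ± 2.48 (SD, n = 3) in control libraries. The ratio of Ighv to kappa V (Igkv) counts was 1.01 ± 0.047 in gluten-free and 0.964 ± 0.13 in control libraries with plain IDs, and 0.923 ± 0.13 in gluten-free and 1.02 ± 0.083 in control libraries with S IDs (SD, same n). Ighm, the constant gene of IgM, took 85.5 ± 2.80% of the heavy constant counts in gluten-free and 85.5 ± 4.21% in control libraries with plain IDs. With S IDs its share was 78.5 ± 3.94% in gluten-free and 85.8 ± 1.82% in control libraries, and these ranges did not overlap. With plain IDs, then, V and constant counts stood in nearly the same proportion in both diets, and with S IDs the gluten-free libraries held fewer V counts per constant count on average.

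Usage is the share of a library's Ighv counts that falls on a gene. It was spread over many genes: 17 genes made up the upper 50% of the mean usage, the 15 most used together took 47.9%, and 27 genes were each under 0.1%. The effective number of genes, the exponential of the Shannon entropy of the shares, was 54.7 ± 3.54 (SD, n = 4) in gluten-free and 52.1 ± 5.96 (SD, n = 8) in control libraries with plain IDs. With S IDs it was 55.0 ± 4.82 (SD, n = 5) in gluten-free and 53.7 ± 4.25 (SD, n = 3) in control libraries. These differences are smaller than the spread between libraries.

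Ighv11-2 led the usage. It encodes a heavy chain best known from B-1a cells that bind phosphatidylcholine. Its mean share was 7.60% over the 20 libraries, it was the most used gene in 13 of them, and its share ran from 1.65% to 19.9%. With plain IDs its share was 8.64 ± 2.99% (SD, n = 4) in gluten-free and 8.60 ± 5.19% (SD, n = 8) in control libraries. With S IDs it was 5.06 ± 2.76% (SD, n = 5) in gluten-free and 7.75 ± 4.06% (SD, n = 3) in control libraries, so in neither form did the diets differ beyond the spread. Its close relative Ighv11-1 reached at most 0.755 CPM in any library, while Ighv11-2 ranged from 3.72 to 107 CPM.

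After Ighv11-2 came Ighv2-2 with a mean share of 4.73%, Ighv1-26 with 4.54%, Ighv1-9 with 3.57%, Ighv6-3 with 3.27% and Ighv3-6 with 3.10%. Ighv9-3, Ighv7-3, Ighv1-53, Ighv1-55, Ighv2-9, Ighv5-17, Ighv2-3, Ighv2-6 and Ighv2-9-1 followed with 2.75% down to 2.04%. Per kilobase of gene length the first 9 genes kept this order, with 77.4 CPM per kb for Ighv11-2, 57.3 CPM per kb for Ighv2-2 and 51.5 CPM per kb for Ighv1-26. Only 47.7% of the 50-base windows of Ighv11-2 and 44.2% of those of Ighv2-2 were found in no other Ighv gene or pseudogene.

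By family, the 53 genes of family 1 took 39.6% of the counts on average and the 9 genes of family 2 took 15.6%. Family 5, with 10 genes, took 8.02%. Family 11 took 7.65%, nearly all of it from Ighv11-2. Family 1 took 38.3 ± 2.83% (SD, n = 4) in gluten-free and 39.4 ± 4.73% (SD, n = 8) in control libraries with plain IDs, and 41.2 ± 5.76% (SD, n = 5) in gluten-free and 39.0 ± 3.39% (SD, n = 3) in control libraries with S IDs. These ranges overlap in both forms.

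Summed usage was highest in the genes near the D, J and constant genes. Ordered along the locus, the 29 genes nearest to D took 37.5% of the counts, the next 28 took 26.4%, the following 28 took 21.3% and the 28 farthest genes took 14.8%. The nearest group includes Ighv11-2, and gene by gene the relation was weak, with a Spearman correlation of mean usage and order from D of -0.19 over the 113 genes, as a description. For the nearest group the share was 36.6 ± 2.65% (SD, n = 4) in gluten-free and 39.3 ± 5.63% (SD, n = 8) in control libraries with plain IDs. With S IDs it was 34.5 ± 6.21% (SD, n = 5) in gluten-free and 38.9 ± 5.59% (SD, n = 3) in control libraries. The mean was lower in the gluten-free libraries of both forms, and the ranges overlapped.

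**Figure D2:**
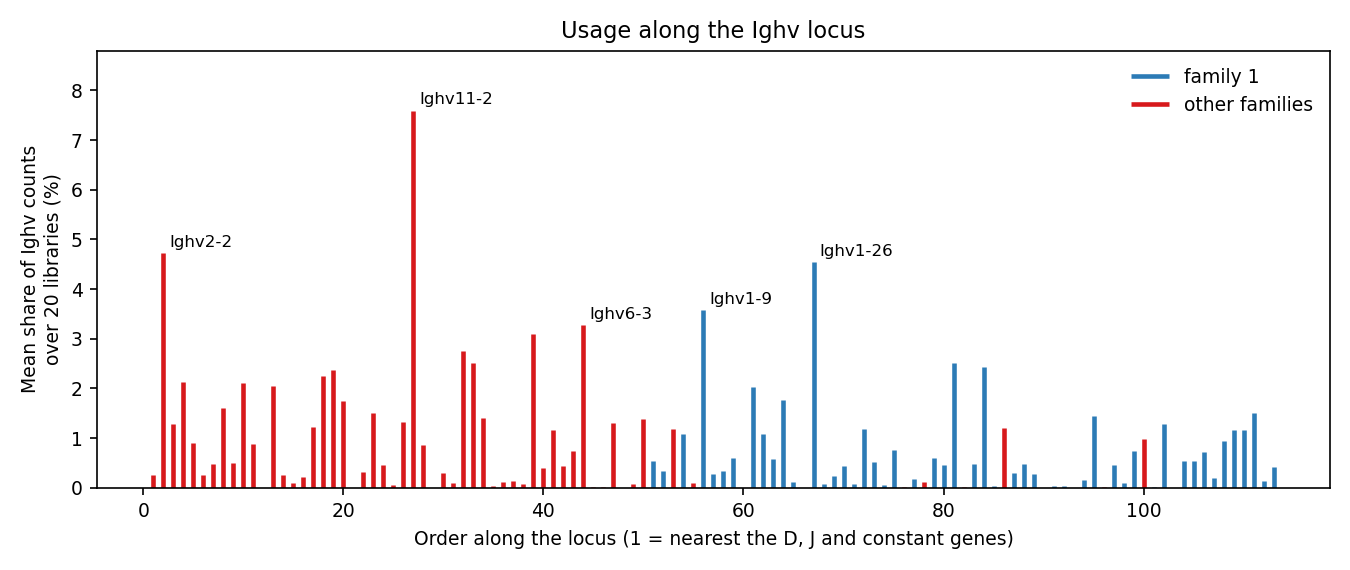
Mean share of Ighv counts over the 20 libraries for each of the 113 genes (vertical axis, %), in their order along the locus from the gene nearest D (left) to the farthest (right), with family 1 in blue and the other families in red. Ighv11-2 at 7.60% is the tallest line, and family 1 fills most of the positions far from D.

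Ighv5-2, also known as V81X, is the gene nearest to D and is favoured in fetal and neonatal rearrangements. It took 0.256% of the counts on average. It had 0.674, 1.18, 1.19 and 0.809 CPM in gluten-free libraries and 0.367 to 1.56 CPM in control libraries with plain IDs, and the groups overlapped. By mean usage it ranked below most of the tested genes.

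The order of usage was alike in the 2 diets. Over the 113 genes the Spearman correlation of mean usage between gluten-free and control libraries was 0.962 with plain IDs and 0.961 with S IDs. It is a description across genes, which share libraries, mapping and depth. Of the 84 most used genes, 65 had mean shares within 1.5-fold of each other in the 2 diets, and this count was the same in each ID form.

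Single libraries often carried 1 gene at a high share. Of the 84 most used genes, 26 had a library above 3 times the gene's median share. This count sets no limit for counting noise, and the least used of these genes had few counts per library. In control 8, Ighv11-2 took 19.9% of the Ighv counts (95% Wilson interval 19.1% to 20.8%), where the next highest library had 11.7%. In control 7, Ighv1-9 took 13.5% (12.7% to 14.4%) against a median of 2.77% in the other libraries. Intervals cover counting error only.

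In gluten-free S3, Ighv3-6 took 11.2% (10.4% to 12.1%), where the other libraries had a median of 2.61%. In gluten-free S1, Ighv2-9 took 6.67% (6.04% to 7.37%), where the others had a median of 2.01%. In gluten-free S8, Ighv5-4 took 5.93% (5.18% to 6.78%), where the others had a median of 1.04%. Such high shares occurred in libraries of both diets and both ID forms.

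**Figure D3:**
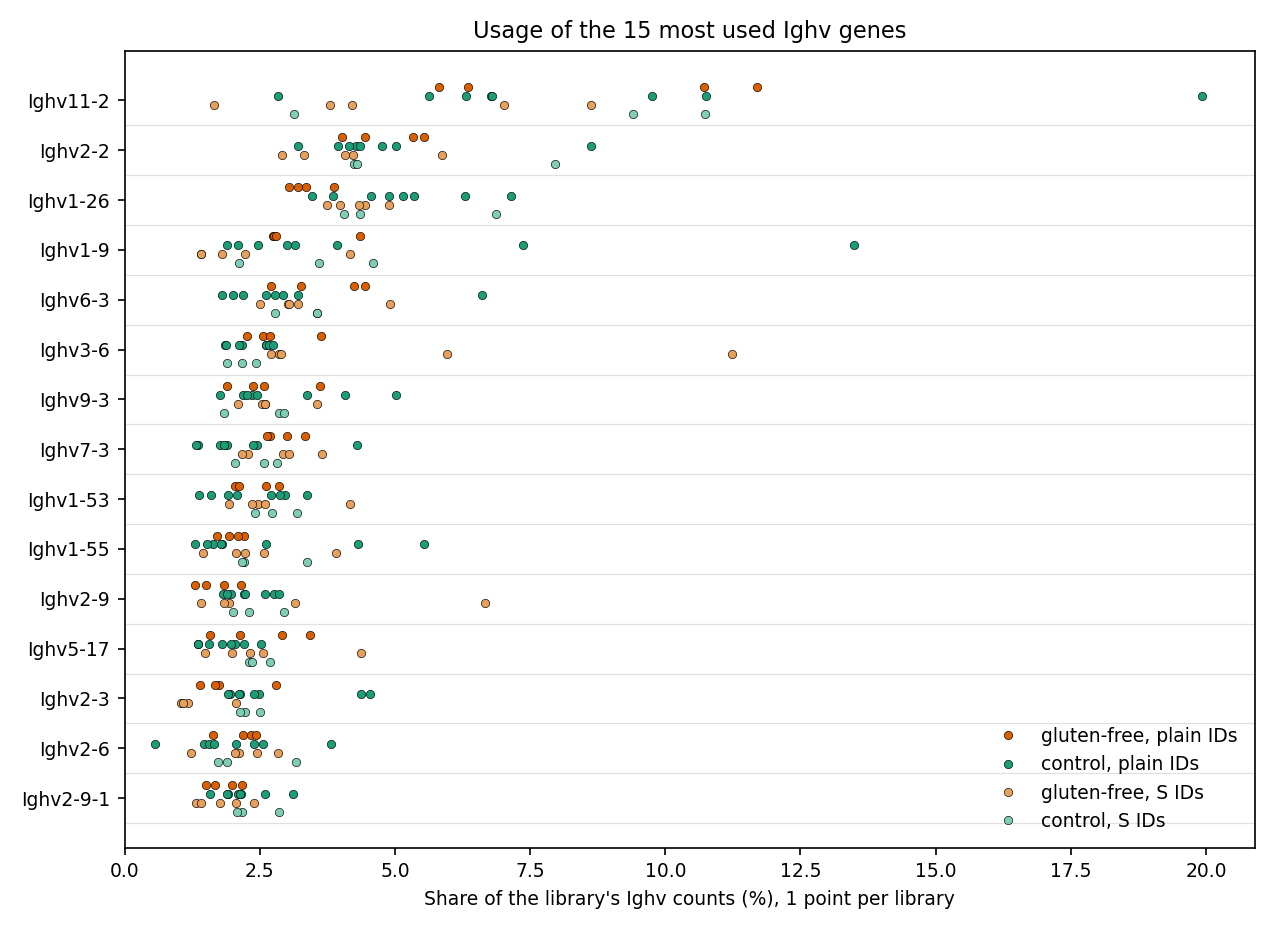
Share of each library's Ighv counts (horizontal axis, %) for the 15 most used genes, with 1 point per library and the 4 combinations of diet and ID form in separate rows and colours. The groups overlap for most genes, and the points that stand far to the right are single libraries, such as control 8 for Ighv11-2 at 19.9% and control 7 for Ighv1-9 at 13.5%.

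Diet differences of single genes were tested in edgeR over all 17600 genes that passed the expression filter, with Benjamini-Hochberg adjustment over all of them and a call at an adjusted p under 0.05. Of the Ighv genes, 84 passed the filter. The other 29, of which 23 had at least 1 count, totalled at most 138 counts each over the 20 libraries. Fold changes are log2 of gluten-free over control, with the standard error of the fit.

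With plain IDs, 37 of the 84 tested genes rose in the gluten-free libraries and 1 fell (26 genes called without gluten-free 8 and 47 without control 8). In the fit of all plain-ID libraries the background over all genes was 19.7% higher and 22% lower. In either direction 41.7% of all genes were called, so the share of Ighv genes called lay near the background while its direction did not. The log2 fold change was above 0 for 80 of 84 genes, against 53.5% of all genes, and 48 of 84 had an unadjusted p under 0.05, against 50.8% of all genes. The log2 fold change had a median of 0.75 for the Ighv genes and 0.05 for all genes. The direction was not particular to the Ighv genes. Of 26 tested T cell receptor V genes 25 were above 0, with a median of 0.78, and 8 were called higher and 0 lower. In 9 genes every gluten-free library lay above every control library, which held for 7.84% of all genes. Of the 41 tested genes of family 1, 19 rose, and the families 3, 6 and 7 had 3 of 4, 2 of 2 and 3 of 3 tested genes called higher. Families 8 and 12 had 2 of 3 and 1 of 1. Families 2, 5, 9 and 14 had 2 of 8, 3 of 9, 1 of 4 and 1 of 4, and families 4, 10, 11 and 13 had 0.

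Ighv1-22 had the smallest adjusted p of the Ighv genes. It had 26.2, 21.4, 14.2 and 26.5 CPM in gluten-free libraries 7, 8, 9 and 10, against 2.04 to 11.1 CPM with a median of 4.50 CPM in control libraries. The groups did not overlap, and the highest control library was control 8. The log2 fold change was 2.10 ± 0.30 (SE, edgeR adjusted p = 6.9e-05). Its usage also stood apart, at 2.33% to 4.25% in gluten-free and 0.913% to 2.06% in control libraries.

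Of the nearest relatives of Ighv1-22, Ighv1-34 was called higher, with a log2 fold change of 1.77 ± 0.35 (SE, edgeR adjusted p = 0.000792). Ighv1-26, equally near, was not called. It had 20.7, 27.6, 20.4 and 18.9 CPM in gluten-free libraries and 13.6 to 25.1 CPM with a median of 17.1 CPM in control libraries. The groups overlapped, with a log2 fold change of 0.25 ± 0.16 (SE, edgeR adjusted p = 0.227). Its usage was 3.37 ± 0.36% (SD, n = 4) in gluten-free and 5.09 ± 1.21% (SD, n = 8) in control libraries. Of the 50-base windows of Ighv1-22, 77.2% were found in no other Ighv gene or pseudogene. The difference between the fold changes of Ighv1-22 and Ighv1-26 was not tested.

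Ighv12-3 had the highest fold change of the Ighv genes, which rests largely on 1 library. Its product, like that of Ighv11-2, is known from B-1 cells that bind phosphatidylcholine. It had 4.34, 5.27, 2.42 and 32.5 CPM in gluten-free libraries 7, 8, 9 and 10, against 0.391 to 3.06 CPM with a median of 1.15 CPM in control libraries. Gluten-free 10 was far above the rest, and gluten-free 9 lay within the control range. The log2 fold change was 2.98 ± 0.58 (SE, edgeR adjusted p = 0.000798), and without gluten-free 10 it was 1.52 (edgeR adjusted p = 0.0158). In gluten-free 10 the gene took 5.22% of the Ighv counts (95% Wilson interval 4.83% to 5.64%).

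**Figure D4:**
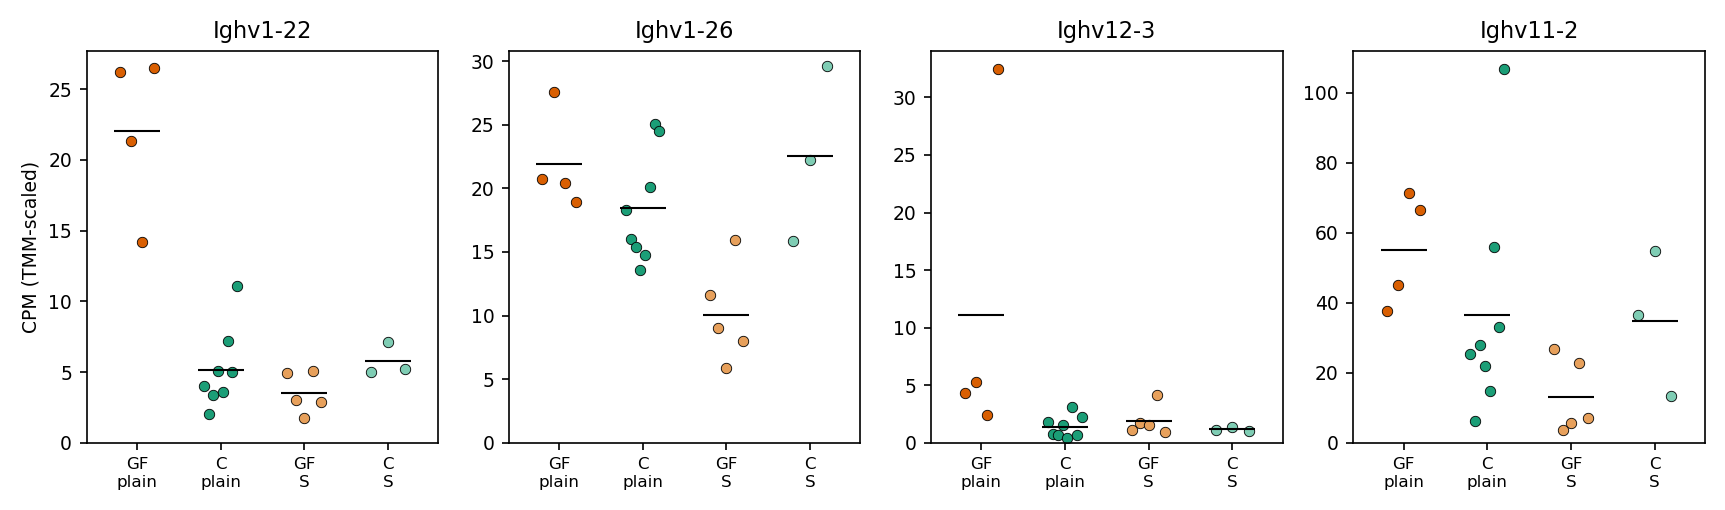
Level of Ighv1-22, Ighv1-26, Ighv12-3 and Ighv11-2 (TMM-scaled CPM, vertical axes differ) in gluten-free (GF) and control (C) libraries of each ID form, with 1 point per library and a line at the group mean. Ighv1-22 separates the diets with plain IDs, Ighv12-3 is high in gluten-free 10 at 32.5 CPM, and Ighv11-2 is high in control 8 at 107 CPM.

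Among the most used genes, Ighv3-6 rose with plain IDs. It had 23.5, 18.2, 16.5 and 14.1 CPM in gluten-free libraries and 5.87 to 11.0 CPM with a median of 8.78 CPM in control libraries. The groups did not overlap, with a log2 fold change of 1.08 ± 0.17 (SE, edgeR adjusted p = 0.000114). Ighv5-17 had 22.1, 20.8, 13.0 and 9.87 CPM in gluten-free libraries and 4.62 to 9.35 CPM with a median of 6.94 CPM in control libraries. Its log2 fold change was 1.29 ± 0.21 (SE, edgeR adjusted p = 0.000164), again without overlap.

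Ighv1-64 had 9.47, 12.2, 9.59 and 8.09 CPM in gluten-free libraries and 4.08 to 6.46 CPM with a median of 4.62 CPM in control libraries. The groups did not overlap, with a log2 fold change of 1.01 ± 0.15 (SE, edgeR adjusted p = 8.5e-05). Ighv2-2, Ighv6-3, Ighv9-3, Ighv7-3 and Ighv1-53 also rose, with log2 fold changes of 0.69 (Ighv9-3) to 1.11 (Ighv7-3). Ighv11-2 at 0.60 ± 0.47, Ighv1-9 at 0.14 ± 0.50, Ighv1-55 at 0.42 ± 0.36, Ighv2-9 at 0.34 ± 0.24, Ighv2-3 at 0.22 ± 0.35, Ighv2-6 at 0.77 ± 0.40 and Ighv2-9-1 at 0.53 ± 0.25 did not pass the test. None of the 6 genes named for the highest fold changes is among the 15 most used.

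The further genes with high fold changes were at low levels. Ighv1-66 had 4.84, 9.94, 2.68 and 1.73 CPM in gluten-free libraries and 0.485 to 2.33 CPM in control libraries, and its log2 fold change was 2.05 ± 0.41 (SE, edgeR adjusted p = 0.000907). Ighv1-36, Ighv1-34 and Ighv1-58 had log2 fold changes of 1.96, 1.77 and 1.67. Of the genes with a known antibody specificity, Ighv1-72, used in the response of C57BL/6 mice to the hapten nitrophenyl, had a log2 fold change of 0.96 ± 0.29 (edgeR adjusted p = 0.0132). Ighv7-1, known from antibodies to phosphorylcholine, had 0.86 ± 0.33 (edgeR adjusted p = 0.0442). Only 8.61% of the 50-base windows of Ighv1-72 were found in no other Ighv gene or pseudogene, so its counts are uncertain.

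The only gene that fell was Ighv1-49, named after its values were seen. It had 0.211, 0.174, 0.268 and 0.270 CPM in gluten-free libraries and 0 to 1.36 CPM in control libraries, and the groups overlapped through control 6 at 0 CPM. Its log2 fold change was -1.67 ± 0.59 (SE, edgeR adjusted p = 0.0318). Along the locus the median log2 fold change was 0.51 in the group of genes nearest to D, then 0.80 and 0.72, and 0.98 in the farthest group. In this order 7 of 24, 10 of 21, 9 of 19 and 11 of 20 tested genes were called higher, against 19.7% of all genes. A trend along the locus was not tested.

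Other B lineage and cell type genes moved with the plain-ID result. Over all genes 19.7% were called higher and 22% lower, and the lists share some genes, such as Mzb1. All 4 light chain constant genes rose, and 4 of 7 tested heavy chain constant genes rose, including Ighm at 0.70 ± 0.14 and Igha, the constant gene of IgA, at 1.28 ± 0.27. Of the Igkv genes 25 of 63 rose and none fell. Among genes of B cell precursors 9 of 10 rose, including Dntt, which adds bases at V(D)J junctions, at 1.54 ± 0.31, Rag1, a subunit of the recombinase, at 1.59 ± 0.41 and Igll1, part of the surrogate light chain, at 2.01 ± 0.47. In the wider list of V(D)J recombination and class switching genes 3 of 16 rose (Dntt, Rag1 and Rag2) and 7 fell, with a median log2 fold change of -0.17. Of 13 heavy chain locus transcription and contraction factors 4 rose and 5 fell. Among plasma cell genes 10 of 12 rose, including Jchain, which links IgM and IgA subunits, at 0.77 ± 0.17. Of the B cell identity genes 4 of 12 rose, with a median log2 fold change of 0.43. Of 9 germinal centre genes 7 rose, and of 11 B-1 and marginal zone genes 8 rose.

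Genes outside the B lineage moved as well. Erythroid genes fell in 12 of 12, with a summed level of 37366 to 74216 CPM in gluten-free and 53428 to 128070 CPM in control libraries with plain IDs. Neutrophil genes rose in 12 of 12 (2950 to 7826 CPM in gluten-free and 726 to 2273 CPM in control libraries), and T cell genes rose in 12 of 12 (813 to 941 CPM in gluten-free and 420 to 725 CPM in control libraries). The B cell identity sum was 2872 to 4085 CPM in gluten-free and 1846 to 3945 CPM in control libraries, and the plasma cell sum was 1110 to 1199 CPM in gluten-free and 633 to 968 CPM in control libraries. With the mean erythroid level as a covariate, 1 Ighv gene was called and the median log2 fold change of the 84 genes was 0.65. With it 64 genes were above and 20 below 0, against 80 and 4 without it. This covariate did not overlap between the plain-ID diets, at 8.44 to 9.15 in gluten-free and 9.39 to 10.4 in control libraries (mean log2 CPM). That fit therefore cannot separate diet from the erythroid level. With the mean B cell identity level as a covariate, 31 were called and the median was 0.84. The part of cell composition in the result was not tested beyond these values.

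With S IDs no Ighv gene was called by edgeR or by DESeq2, and the background was 0% of all genes. At an unadjusted p under 0.05 there were 40 of 84 Ighv genes, against 5.21% of all genes. The log2 fold change was above 0 for 6 of 84 genes, against 54.3% of all genes, and the median was -0.87 for the Ighv genes and 0.02 for all genes. In 22 genes every gluten-free library lay below every control library, which held for 1.95% of all genes.

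The smallest p among the S-ID libraries belonged to Ighv1-53. It had 7.62, 4.37, 5.47, 7.67 and 4.78 CPM in gluten-free libraries S1, S3, S5, S6 and S8, against 9.40, 13.9 and 13.7 CPM in control libraries S1, S2 and S6. The groups did not overlap, with a log2 fold change of -1.04 ± 0.24 (SE, edgeR adjusted p = 0.898). Ighv2-2 had 13.1, 7.49, 5.34, 9.46 and 10.8 CPM in gluten-free libraries and 16.5, 40.6 and 18.5 CPM in control libraries. The log2 fold change was -1.45 ± 0.33 (SE, edgeR adjusted p = 0.898). Control S2 was the highest library here. Ighv4-1, the only gene of its family, had 2.03, 1.95, 1.12, 3.59 and 1.95 CPM in gluten-free libraries and 4.76, 4.30 and 15.6 CPM in control libraries. Its log2 fold change was -1.93 ± 0.45 (SE, edgeR adjusted p = 0.898).

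Of the genes that stood out with plain IDs, the levels of Ighv3-6 and Ighv12-3 overlapped between the diets with S IDs. Ighv1-22 had lower values in most gluten-free libraries without passing the test. Ighv3-6 had 8.87, 25.4, 3.79, 8.81 and 11.0 CPM in gluten-free and 7.36, 12.3 and 9.38 CPM in control libraries, high in gluten-free S3 alone. Ighv1-22 had 4.91, 3.03, 1.74, 5.04 and 2.89 CPM in gluten-free and 5.01, 7.15 and 5.18 CPM in control libraries, and its log2 fold change was -0.71 ± 0.33 (SE, edgeR adjusted p = 0.898). Its usage was 1.47 ± 0.13% (SD, n = 5) in gluten-free and 1.30 ± 0.10% (SD, n = 3) in control libraries, so the high usage seen with plain IDs was not present with S IDs. Ighv12-3 had 1.07, 1.73, 1.55, 4.16 and 0.945 CPM in gluten-free and 1.11, 1.33 and 1.05 CPM in control libraries, and these groups overlapped. Its usage did not overlap with S IDs, at 0.346% to 1.28% in gluten-free and 0.244% to 0.286% in control libraries. With plain IDs its usage overlapped, at 0.396% to 5.22% in gluten-free and 0.131% to 0.589% in control libraries. These usage differences were not tested.

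No gene of the other lists was called with S IDs. The median log2 fold change was -0.67 for the 63 Igkv genes, -0.31 for the 7 heavy chain constant genes, -0.18 for the 12 plasma cell genes and 0.16 for the 12 B cell identity genes. Ighm had -0.54 ± 0.27 (edgeR adjusted p = 0.898) and Jchain -0.65 ± 0.27 (edgeR adjusted p = 0.898). The B cell identity sum was 1488 to 4244 CPM in gluten-free and 1454 to 3681 CPM in control libraries, the plasma cell sum was 473 to 920 CPM in gluten-free and 719 to 950 CPM in control libraries, and the erythroid sum was 65482 to 115184 CPM in gluten-free and 62808 to 138962 CPM in control libraries. The B cell identity sums of the diets thus overlapped while the Ighv sums did not.

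The difference between the ID forms was tested directly as an interaction of diet and form. The log2 difference, gluten-free against control with S IDs minus the same with plain IDs, was called below 0 for 52 of 84 Ighv genes and above 0 for none (61 below 0 without gluten-free S6). Over all genes 10.3% were called below 0 and 15.3% above 0, which makes 25.7%. At an unadjusted p under 0.05 there were 66 of 84 Ighv genes, against 38.6% of all genes. The value was above 0 for 4 of 84, against 47.9% of all genes, and the median was -1.61 for the Ighv genes and -0.04 for all genes. Ighv1-64 had the smallest p, with -2.14 ± 0.31 (SE, edgeR adjusted p = 0.00175), followed by Ighv5-17 at -2.21 ± 0.39 and Ighv1-22 at -2.80 ± 0.50 (SE, edgeR adjusted p = 0.00225 each).

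Ighv1-64 shows the pattern by library. With S IDs it had 3.16, 2.60, 2.55, 4.91 and 2.39 CPM in gluten-free and 6.00, 9.69 and 4.94 CPM in control libraries, so that the gluten-free libraries were below the controls, where with plain IDs they were above them. Ighv11-2, Ighv1-9, Ighv3-6, Ighv1-55, Ighv2-9 and Ighv12-3 were not called in this test. The same test called 28 of 63 Igkv genes, 2 of 7 heavy chain constant genes, 4 of 12 plasma cell genes, 0 of 12 B cell identity genes and 0 of 26 T cell receptor V genes below 0. It called 9 of 12 erythroid genes above 0 and 12 of 12 neutrophil genes below 0. With the erythroid level as a covariate 10 Ighv genes were called, while the median was -1.32 with 77 of 84 genes below 0. Without control S2 33 genes were called, all below 0.

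**Figure D5:**
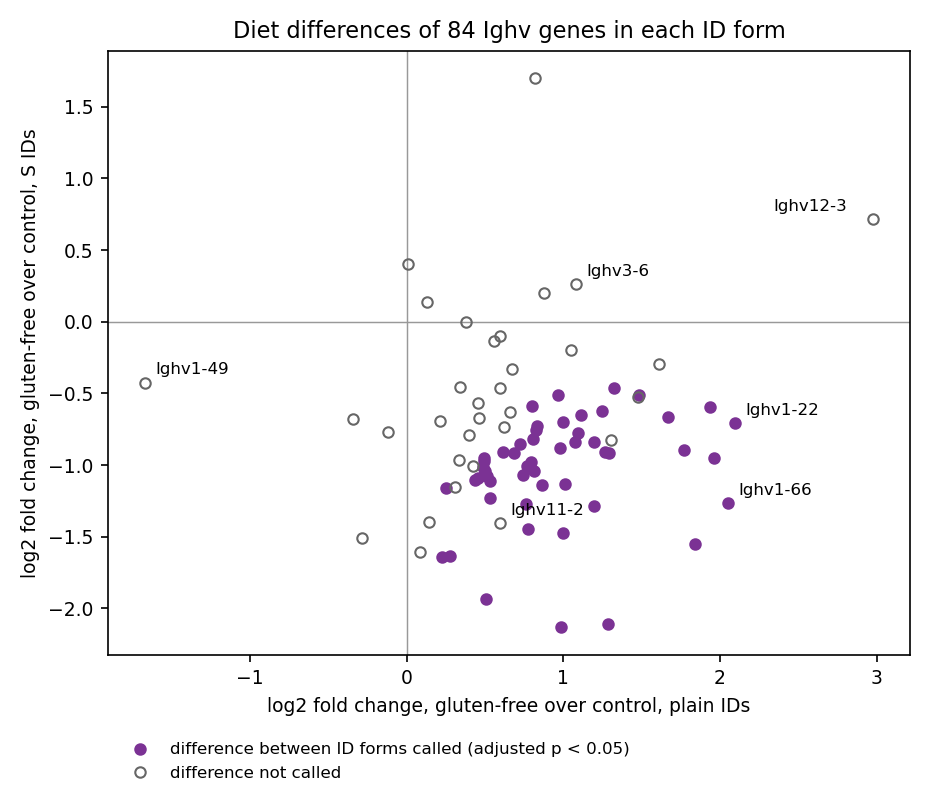
log2 fold change of gluten-free over control with plain IDs (horizontal axis) and with S IDs (vertical axis) for the 84 tested Ighv genes, filled where the interaction of diet and ID form was called in edgeR. Most genes lie right of 0 and below 0, and Ighv12-3 and Ighv3-6 lie above 0 on both axes.

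Over all 20 libraries, with ID form as a term, no Ighv gene was called, and the background was 0%. At an unadjusted p under 0.05 there were 6 of 84, against 25.5% of all genes, and DESeq2 called 2. The median log2 fold change was 0.12, with 54 of 84 genes above 0, against 51.4% of all genes. With the erythroid level as a covariate the median was -0.53, with 13 genes above and 71 below 0. The 3 smallest p-values were those of Ighv12-3 at 2.19 ± 0.50 (SE, edgeR adjusted p = 0.102), Ighv3-6 at 0.75 ± 0.24 (SE, edgeR adjusted p = 0.102) and Ighv1-22 at 1.02 ± 0.37 (SE, edgeR adjusted p = 0.113). Leaving out control S6 gave 4 called genes and leaving out gluten-free S8 gave 3, with Ighv12-3 and Ighv1-22 among them in both cases. The share of all genes called in these refits is not given here. The pooled fit gives 1 value for diets that differed in opposite directions in the ID forms.

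The forms were also compared with each other, with diet as a term. The fitted difference, S IDs against plain IDs, was below 0 for 79 of 84 genes, where 49.9% of all genes were above 0, with a median log2 difference of -0.59. This is 1 term for both diets: the summed level was 235 CPM with S IDs and 648 CPM with plain IDs in gluten-free libraries, but 443 CPM with S IDs and 382 CPM with plain IDs in control libraries. Of the Ighv genes 4 were called lower and none higher, against a background of 9.14% in either direction, 3.74% lower and 5.4% higher. The called genes were Ighv14-2 at -0.92 ± 0.22 (edgeR adjusted p = 0.0182), Ighv1-42 at -1.17 ± 0.30 (edgeR adjusted p = 0.023), Ighv14-3 at -1.02 ± 0.28 (edgeR adjusted p = 0.0305) and Ighv1-81 at -0.86 ± 0.27 (edgeR adjusted p = 0.0482). Ighv14-2 had 2.09 to 4.64 CPM in gluten-free and 3.96 to 4.81 CPM in control libraries with S IDs, and 7.13 to 8.63 CPM in gluten-free and 2.22 to 8.63 CPM in control libraries with plain IDs. Without control S6 22 genes were called lower, and leaving out any other single library gave 1 (without gluten-free 7) to 8. With the erythroid level as a covariate none was called, and the median was -0.15 with 59 of 84 genes below 0.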

How the data were processed

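Whole spleen RNA of 20 libraries was analysed from the raw counts per gene that the authors deposited, which are whole numbers without any scaling. According to the submitters' processing notes, CASAVA, HISAT2 2.0.5 and featureCounts 1.5.0 were used with GRCm38 (mm10). The strand setting, the annotation release and how multiply matching reads were counted are not given in the sources used here. Diet and ID form were taken from the labels' titles.

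Tests used R 4.3.3 and edgeR 4.0.16, with its two-sided quasi-likelihood test, TMM scaling and the default expression filter for diet and ID form, which kept 17600 genes. Benjamini-Hochberg adjustment covered all of them, with a call at 0.05. Each ID form was fitted by itself for diet, all libraries were fitted with diet and form as terms, and a further fit added their interaction. The standard error is the size of the log2 fold change divided by the root of F. CPM in every group uses the TMM factors of all 20 libraries. Usage is a gene's share of its library's Ighv counts, and intervals are 95% Wilson intervals. The fit was tested on simulated counts.

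Genes were named by rule, beginning with the 15 most used. Up to 6 called genes with the highest and up to 6 with the lowest plain-ID fold change were taken. These needed a mean of at least 1 CPM. Added were the 3 smallest p-values of each other test and the leading gene of each family with at least 1% of usage. The last were 5 genes with a textbook role. The members and lists were chosen with earlier results of these data known. Alternatives were RLE, upper quartile and library-total scaling, a looser filter (1 count in all) or a stricter one (mean of 1 CPM), limma-voom (limma 3.58.1), DESeq2 1.42.0, B cell identity or erythroid covariates, no term for the form, a replicate block over shared IDs, and leaving out 1 library at a time.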

Additional observations from a re-analysis of the deposited data

Results flagged for a closer look

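Within 3 of the 4 combinations of diet and ID form (the control S IDs hold too few libraries), the highest and lowest library of each of the 32 named genes was set against Dixon's 95% limit. Of 96 gene and group pairs, 16 passed it. A chance rate of about 1 in 20 holds only for independent, normally distributed values. These genes were named partly from these data and share libraries, and the share over all genes was not taken. An excess over chance is therefore not shown. In control 7 the level stood out high for Ighv1-9 at 65.7 CPM, Ighv1-55 at 27 CPM, Ighv14-4 at 21.9 CPM and Ighv1-34 at 1.67 CPM. Control 1 was high for Ighv6-3 at 24.8 CPM, and control 6 for Ighv14-3 at 5.59 CPM. In gluten-free 10, Ighv12-3 at 32.5 CPM and Ighv1-58 at 4.47 CPM stood out high and Ighv14-4 at 1.67 CPM stood out low, and gluten-free 7 was high for Ighv1-42 at 5.05 CPM. In gluten-free S6, Ighv1-9 at 13.6 CPM, Ighv12-3 at 4.16 CPM and Ighv14-2 at 4.64 CPM were high. Gluten-free S1 was high for Ighv2-9 at 20.7 CPM and Ighv7-1 at 10.2 CPM, and gluten-free S5 was low for Ighv2-6 at 1.61 CPM.

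For 23 of the 32 named genes the diet difference itself differed between the ID forms in the edgeR interaction test. In each case the log2 fold change was lower with S IDs than with plain IDs. Over all genes 10.3% were called in this direction. Some of these genes were named for a small p in this same test or for a high plain-ID fold change, so the count is not a separate result. The interaction was -3.32 for Ighv1-66, -3.11 for Ighv14-4, -2.91 for Ighv1-36, -2.80 for Ighv1-22, -2.65 for Ighv1-34, -2.44 for Ighv4-1 and -2.33 for Ighv1-58. It was -2.22 for Ighv2-2, -2.21 for Ighv5-17, -2.14 for Ighv1-64, -2.04 for Ighv8-8 and -2.0 for Ighv7-1. It was -1.92 for Ighv6-3, -1.86 for Ighv2-3, -1.85 for Ighv1-53, -1.85 for Ighv14-3, -1.78 for Ighv2-6, -1.76 for Ighv7-3 and -1.76 for Ighv2-9-1. The smallest were -1.60 for Ighv9-3, -1.49 for Ighv10-1, -1.48 for Ighv1-72 and -1.41 for Ighv1-26. Erythroid and neutrophil genes also differed between the forms in this test, and their part in these values was not tested beyond the covariate fits.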

How the results depend on the processing

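The limits are that the part of cell composition was not tested beyond 2 covariates, that the meaning of the S IDs is unknown, and that the handling of reads shared by close relatives is not stated. Depth limits the 29 untested genes, each at no more than 138 counts in all.

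With plain IDs the count of 38 called genes stayed between 31 and 56 under the other scalings, filters, limma-voom, DESeq2 and the B cell identity covariate. It was 1 with the erythroid covariate, which did not overlap between the plain-ID diets. It was 3 with the replicate block over IDs 7 and 8, which kept only the libraries with those IDs. With S IDs the count was 0 in the main fit and 4, all lower, with the replicate block over S1 and S6. That fit likewise kept only the libraries with those IDs. Its median was -0.34 with 63 of 84 genes below 0, against -0.87 and 78 in the main fit. The block and the smaller set of libraries cannot be told apart in these fits. Over all libraries the count was 0, and 2 with DESeq2. For S against plain IDs the 4 calls became 7 with library totals, 11 with limma-voom, 9 with DESeq2 and 0 with the erythroid covariate, and the 52 interaction calls became 10 with the erythroid covariate, at a median of -1.32. Counts under an alternative or with 1 library left out, here and above, are given without the share of all genes called. They do not show whether a change was particular to the Ighv genes. The cause of these changes was not tested.

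Leaving out 1 library at a time gave 26 to 47 calls with plain IDs, 0 to 0 with S IDs, 0 to 4 over all libraries, 1 to 22 for S against plain IDs and 33 to 61 for the interaction. It gave a mean effective number of 53.2 to 54.1 genes and a plain-ID ratio of summed levels of 1.60 to 1.80. That ratio was 2.01 with library totals, under which the plain-ID median of all genes was 0.30 in place of 0.05.

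The shared IDs 7, 8, S1 and S6 were not taken as pairs, since the labels tie no ID to a shared animal, litter or batch. The correlations of deviations were -0.19, -0.22, 0.14 and 0.41. Gluten-free S1 and S6 each correlated best with the control of their own ID, which 7 and 8 did not, and gluten-free S6 and control S6 both had high B cell and low erythroid levels. With only 3 control libraries of the S form to match, these values do not show that shared IDs are pairs.

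Of the named genes, Ighv5-2 in the plain-ID comparison (0.01) reversed to -0.017 (RLE), -0.0059 (no filter), -0.0084 (DESeq2), -0.19 (erythroid covariate) and -0.33 (replicate block), and to -0.10, -0.11, -0.12, -0.018, -0.11 and -0.023 without gluten-free 8, gluten-free 9, control 2, control 3, control 5 or control 7. The erythroid covariate reversed Ighv11-2 to -0.78, Ighv9-3 to -0.42 and Ighv8-8 to -0.72, and in the pooled fit Ighv1-22 to -0.12. The replicate block reversed Ighv11-2 to -0.53, Ighv1-26 to -0.050, Ighv1-9 to -0.16, Ighv1-55 to -0.18 and Ighv4-1 to -1.24. That fit kept only the libraries with IDs 7 and 8. Among them are control 8, with 19.9% of its Ighv counts on Ighv11-2, and control 7, with 13.5% on Ighv1-9. The part of the smaller set of libraries in these reversals was not tested. Leaving out 1 library at a time gave -0.050 (without gluten-free 7) to 0.77 for Ighv1-9, -0.093 (without gluten-free 8) to 0.47 for Ighv2-3, -0.13 (without gluten-free 10) to 0.86 for Ighv4-1, and -0.12 to 0.15 for Ighv5-2. Of all values of named genes under an alternative, 833 kept direction and side of the threshold, 56 lost a call, 24 gained one and 23 reversed.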

Other observations

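The 70 Ighv pseudogenes of the table were almost silent. At least 1 count was found for 37 of them, and their summed counts were 15 to 95 per library, where the 113 genes had 2112 to 16344.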
